A study of Mus musculus with 12 samples.

Results

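The 8 genes described here encode enzymes that set the direction of glucose flux in the liver: Pck1, G6pc, Fbp1 and Pcx of gluconeogenesis, Pklr, Pfkfb1 and Pfkfb4 of glycolysis and its control, and Gys2 of glycogen synthesis. They were chosen by gene symbol with earlier results of these data known, so their shares beside those of all genes are a description. A probe was kept where its detection p-value was under 0.05 on at least 3 of the 12 arrays. By that rule 7 of the 8 genes had a kept probe, with 10 kept of 13 named probes, among 9747 genes tested in all. Pfkfb1 was not analysed here, since the probe annotation used pairs no probe with that symbol.

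Gluconeogenesis makes glucose from lactate, alanine and glycerol, and it runs against glycolysis through a few steps that are not shared. At those steps separate enzymes work in opposite directions, so the liver's output or uptake of glucose follows from the balance between them. Insulin, glucagon and thyroid hormone all act on the transcription of such genes in hepatocytes. The estrogen-related receptor alpha (Esrra) is an orphan nuclear receptor that activates genes of oxidative metabolism in mitochondria, and it binds elements related to those of the thyroid hormone receptor.

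Liver RNA was hybridised to Illumina mouse bead arrays with 45281 probes, on 12 arrays in 4 groups of 3. All arrays came from male C57BL/6 mice aged 8 weeks, with food and water freely available. The control group (Cont) received neither agent. The T3 group received L-T3 (liothyronine, the active thyroid hormone) for 3 days, the XCT790 group (xct_cnt) received XCT790, an inverse agonist of Esrra, for 4 days, and the combination group (xct_T3) received XCT790 for 4 days with L-T3 on the last 3. Both agents were given daily into the peritoneum, and no vehicle injection is stated for the controls. Drug and injection therefore cannot be told apart in comparisons with the controls. The same holds for the difference between the T3 responses with and without XCT790, which also uses the controls. The labels number the samples of a group but do not say that they came from separate mice, so p-values measure the spread between these samples, which may be technical.

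Between 31.9% and 35.6% of probes were detected per array, and the summed intensity ran from 14568457 to 22343383. Arrays of a group correlated at 0.989 to 0.992 over the genes tested, and arrays of different groups at 0.969 to 0.990. XCT790 array 3 was the brightest before scaling, with a median log2 intensity of kept probes of 7.27 against 6.64 and 6.65 for the other XCT790 arrays, and without that array the calls with XCT790 alone of Pck1, Foxo1, Ppp1r3b, Gpt2, Esrra, Cebpb and Txnip held and that of Gpt ended. The liver label held: 8 of 10 hepatocyte markers were tested, their summed intensity lay between 130843 and 137944 on every array, and none of 4 kidney proximal tubule markers was detected. Of 7 Kupffer cell markers tested (10 listed), 4 rose with T3 alone, 4 with T3 added to XCT790 and 3 for the combination against controls. Of all genes 7.24%, 7.63% and 8.97% were called higher there. The markers' summed intensity was 3512 to 4368 on the T3 arrays, 1827 to 3024 on control arrays, 1814 to 2166 with XCT790 and 2628 to 4505 with the combination. The part of this difference in the results below was not tested, and in whole liver a change in the number of cells of a type cannot be told apart from a change in RNA per cell. Dio1 and Thrsp, known targets of thyroid hormone in liver, rose by 2.13 and 2.59 on the log2 scale with T3 alone (adjusted p = 3.16e-06 and 2.28e-06, limma). Thrsp also rose by 1.23 with XCT790 alone (adjusted p = 0.00319), where no hormone was given, and Dio1 gave -0.19 there (adjusted p = 0.604).

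T3 moved the enzymes in both directions. With T3 alone, Pfkfb4 and Pck1 rose and Fbp1 and Pklr fell, which is 2 higher and 2 lower of 7 tested, beside 16.1% of all 9747 genes called in either direction, 7.24% higher and 8.91% lower. A call here is a limma adjusted p under 0.05, with Benjamini-Hochberg adjustment over all genes tested, and all values are differences of log2 normalised intensity. When T3 was added to XCT790, Pfkfb4 rose and Fbp1, Pklr and Gys2 fell, 1 higher and 3 lower of 7, beside 15.2% of all genes, 7.63% higher and 7.56% lower. XCT790 alone raised Pck1 and no other member passed the test, 1 of 7 beside 4.44% of all genes called and 2.29% called higher. Against untreated controls the combination gave 2 higher (Pfkfb4, Pck1) and 3 lower (Fbp1, Pklr, Gys2), beside 18.7% of all genes, 8.97% higher and 9.77% lower. XCT790 added to T3 gave 0 calls among the 7 members by limma, beside 0.0923% of all genes called. The interaction, the T3 response with XCT790 minus that without, gave 0 of 7 by limma, beside 0.462% of all genes called. At an unadjusted p under 0.05 by limma these comparisons had 0 and 2 members, and the share of all genes at that threshold was not counted. Comparisons that share the control arrays or the XCT790 arrays are not independent of each other.

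The median change of the 7 members was -0.36 with T3 alone, 0.16 with XCT790 alone, -0.41 for T3 added to XCT790 and -0.19 for the combination. Over all 9747 genes the medians were -0.0074, -0.0081, -0.0039 and -0.0068. Scaling each array to the median of all probes, an alternative chosen after seeing the data, moved the median of all genes to -0.17 for T3 added to XCT790 and to -0.27 for the combination. It changed the split of called genes from 744 higher and 737 lower to 266 and 988 in the former, and from 874 and 952 to 288 and 2089 in the latter. Relative to those medians the members' changes under that scaling were 4.37 for Pfkfb4, -0.81 for Fbp1, -0.87 for Pklr and -0.98 for Gys2 with T3 added to XCT790.

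**Figure D1:**
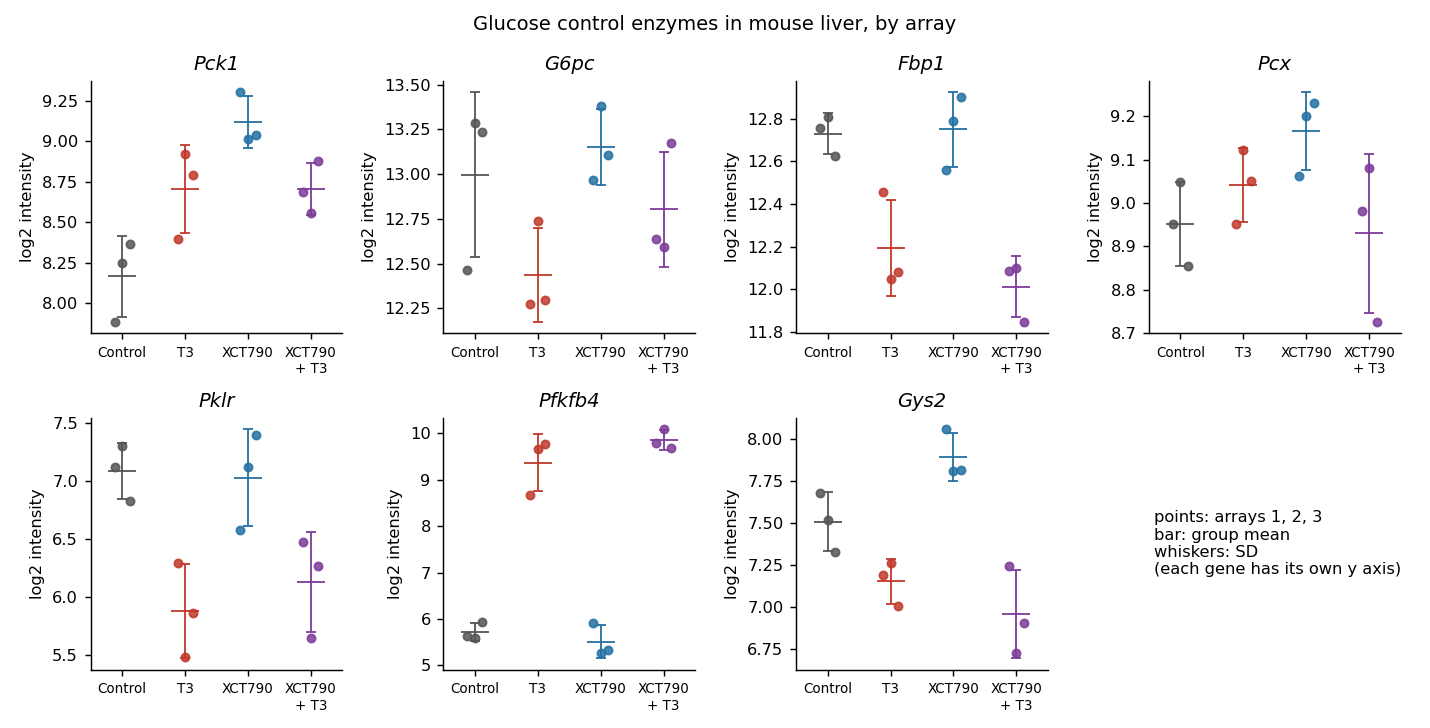
Log2 normalised intensity of the main probe of each of the 7 enzymes, with 1 point per array, a bar at the mean of each group of 3 arrays and whiskers of 1 SD. Pfkfb4 separates every array given T3, at 8.67 or more, from every array without it, at 5.93 or less, while Pcx stays between 8.73 and 9.23 on all 12 arrays.

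The sequences just upstream of the transcription start are shown for the 4 genes whose level passed the test with T3 alone, so that the regions that hormone-dependent factors could read can be compared. They are the 250 bases before the start in RefSeq's promoter table (GRCm38.p6), 5′ to 3′ on the strand of the gene, and 7 of the 8 symbols matched it. Both strands were searched for 8 motifs. The cAMP response element was searched as TGACGTCA and in the shorter form that lies inside it, TGACG. The core that nuclear receptors read was AGGTCA, and the longer element of the estrogen-related receptors, which contains that core, was TCAAGGTCA. The E-box was CACGTG. The forkhead element was TGTTTAC, the TATA box was searched by the letters TATAAA, and the box bound by the factor NF-Y by the letters CCAAT. Capitals mark the matches. Pfkfb4 lies at chr9:108991652-108991901 on the plus strand, Pck1 at chr2:173152823-173153072 on the plus strand, Fbp1 at chr13:62888283-62888532 on the minus strand, and the second of 2 windows of Pklr at chr3:89136373-89136622 on the plus strand.
Pfkfb4: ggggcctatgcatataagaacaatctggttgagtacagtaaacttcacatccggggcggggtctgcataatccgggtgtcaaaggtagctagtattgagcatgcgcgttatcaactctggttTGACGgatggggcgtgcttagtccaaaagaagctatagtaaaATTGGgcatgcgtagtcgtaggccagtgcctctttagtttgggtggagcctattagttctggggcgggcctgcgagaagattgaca
Pck1: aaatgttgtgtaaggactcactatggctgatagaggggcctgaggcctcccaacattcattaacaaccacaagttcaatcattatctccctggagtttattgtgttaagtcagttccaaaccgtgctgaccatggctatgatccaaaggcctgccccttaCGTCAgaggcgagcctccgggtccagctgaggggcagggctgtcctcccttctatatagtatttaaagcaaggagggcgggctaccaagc
Fbp1: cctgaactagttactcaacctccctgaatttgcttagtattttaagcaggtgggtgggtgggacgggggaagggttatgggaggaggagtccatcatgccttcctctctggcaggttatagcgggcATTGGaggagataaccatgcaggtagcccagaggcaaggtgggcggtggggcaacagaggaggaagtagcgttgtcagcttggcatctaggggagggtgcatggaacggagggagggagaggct
Pklr: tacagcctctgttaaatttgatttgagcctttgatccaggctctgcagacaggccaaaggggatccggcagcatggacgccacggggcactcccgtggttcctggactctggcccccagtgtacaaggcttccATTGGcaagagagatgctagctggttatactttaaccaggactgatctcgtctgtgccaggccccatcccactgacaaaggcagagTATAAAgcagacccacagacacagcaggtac

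Among these 4 windows TGACG stood in those of Pfkfb4, at position -128 from the start, and of Pck1, at -90 on the opposite strand, and 17.8% of 32851 mouse promoter windows of the same length hold it. CCAAT was in the Pfkfb4, Fbp1 and Pklr windows, beside 33.8% of all windows, and TATAAA was in the Pklr window at -31, beside 12.4%. The upstream window of G6pc (chr11:101367466-101367715, plus strand) held AGGTCA on the opposite strand at -54, TATAAA at -29 and 2 copies of CCAAT, and AGGTCA is in 14% of all windows. AGGTCA was also on the opposite strand in the first window of Pklr, at -151, and in window 3 of 4 of Pfkfb1, at -100. TCAAGGTCA, in 0.387% of all windows, was not found in any window of the members that matched. These matches describe letters in short windows and were not tested against the expression values.

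Pck1 encodes the cytosolic phosphoenolpyruvate carboxykinase, which turns oxaloacetate into phosphoenolpyruvate and commits it to gluconeogenesis. On its brighter probe the control arrays read 7.89, 8.25 and 8.36, and the T3 arrays 8.40, 8.92 and 8.79. The XCT790 arrays read 9.30, 9.01 and 9.04, and the combination arrays 8.68, 8.56 and 8.87. Every treated array lay above every control array, the XCT790 arrays were the highest of all, and the T3 and combination arrays overlapped. XCT790 alone raised Pck1 by 0.95 (SE 0.16, n = 3 and 3 arrays, adjusted p = 0.00666, limma), a 1.93-fold rise with a 95% interval of 1.51 to 2.47. Without XCT790 array 3 the rise was 0.99 (adjusted p = 0.018), and over all 6 single arrays left out it ran from 0.81 to 1.05 with adjusted p of 0.0133 to 0.0366.

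The Pck1 rise with T3 alone was smaller, 0.54 (SE 0.16, adjusted p = 0.0426, limma), and the call was close to the threshold. It ended when control array 1, control array 2, T3 array 2 or T3 array 3 was left out, with adjusted p of 0.073 to 0.153, and it held in 5 of 12 other processing settings. The combination stood 0.54 above the controls (adjusted p = 0.0387), a call that ended without any 1 of control arrays 1 and 2 and of the combination arrays (adjusted p = 0.0507 to 0.129) and held in 7 of 12 other settings. Under scaling to the median of all probes it was 0.21 (adjusted p = 0.442, limma). The median of all genes was -0.27 there, and relative to it the Pck1 change was 0.47. T3 added to XCT790 changed Pck1 by -0.41 (SE 0.16, adjusted p = 0.119), and under that scaling by -0.66 (adjusted p = 0.0319). Relative to the median of all genes there, -0.17, the latter change was -0.48.

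For Pck1 the T3 response had opposite signs without and with XCT790, and the difference itself was -0.95 (95% interval -1.45 to -0.44, unadjusted p = 0.00149, adjusted p = 0.101, limma). It did not pass the threshold in the fit used here. It passed in 3 of 11 other settings, where adjusted p reached 0.144. These were no background correction (-0.82, adjusted p = 0.0361), a larger background offset (-0.87, adjusted p = 0.0469) and the deposited processed matrix (-0.82, adjusted p = 0.0366). Of 12 single arrays left out it passed for 1, T3 array 1 (-1.10, adjusted p = 0.043), and adjusted p reached 0.214 for the others. XCT790 added to T3 changed Pck1 by 0.0020, with a 95% interval of -0.35 to 0.36. The dimmer Pck1 probe, at 7.39, 7.92 and 7.93 in controls, 8.06, 8.55 and 8.65 with T3, 8.53, 8.40 and 8.63 with XCT790 and 7.92, 8.38 and 8.13 with both, gave rises of 0.67 with T3 (adjusted p = 0.0336) and 0.77 with XCT790 (adjusted p = 0.0464), each probe tested by limma on its own. On that probe the combination differed from the controls by 0.40 with an adjusted p of 0.181. The difference between the T3 responses was -1.05 there (adjusted p = 0.121, limma).

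G6pc encodes the catalytic subunit of glucose-6-phosphatase, which releases free glucose at the last step of gluconeogenesis and glycogen breakdown. Its control arrays read 12.47, 13.29 and 13.24, and its T3 arrays 12.28, 12.74 and 12.30. The XCT790 arrays read 12.97, 13.38 and 13.11, and the combination arrays 12.64, 12.59 and 13.18. All groups overlapped with the controls, whose array 1 stood well below arrays 2 and 3. The change with T3 alone was -0.56 (SE 0.23, adjusted p = 0.129, limma), and without control array 1 it was -0.83 with an adjusted p of 0.0221. With XCT790 alone the difference was 0.16 (95% interval -0.35 to 0.66), with T3 added to XCT790 it was -0.35 (-0.86 to 0.16), and for the combination against controls it was -0.19 (-0.70 to 0.31).

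Fbp1 encodes fructose bisphosphatase, which opposes phosphofructokinase in gluconeogenesis. Control arrays read 12.75, 12.81 and 12.62, T3 arrays 12.45, 12.05 and 12.08, XCT790 arrays 12.56, 12.79 and 12.90, and combination arrays 12.09, 12.10 and 11.85. Arrays given T3 lay below all arrays without it, the control and XCT790 arrays overlapped, and T3 array 1 was the highest of the 6 with hormone. T3 changed Fbp1 by -0.53 (SE 0.13, adjusted p = 0.0176, limma), a level 0.690 times that of controls (95% interval 0.563 to 0.847). Leaving out control array 1, control array 2, T3 array 2 or T3 array 3 ended that call, with adjusted p of 0.0516 to 0.0717, and so did scaling to the median of all probes (-0.64, adjusted p = 0.0598). The fall for T3 added to XCT790 was larger in value, -0.74 (SE 0.13, adjusted p = 0.00341), and passed the test in all 12 other settings and with each of the 6 arrays left out. The combination against controls gave -0.72 (adjusted p = 0.00329). The difference between the T3 responses was -0.20 (95% interval -0.62 to 0.21), and XCT790 alone gave 0.019 (-0.27 to 0.31).

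Pcx encodes pyruvate carboxylase, the mitochondrial enzyme that makes oxaloacetate from pyruvate at the entry to gluconeogenesis. Its values were 8.95, 9.05 and 8.85 in controls, 8.95, 9.12 and 9.05 with T3, 9.06, 9.20 and 9.23 with XCT790, and 8.98, 9.08 and 8.73 with both. The XCT790 arrays lay just above the controls and the other groups overlapped. No comparison of Pcx passed the test: the differences were 0.09 with T3 (95% interval -0.15 to 0.33), 0.21 with XCT790 (-0.029 to 0.46), -0.24 with T3 added to XCT790 (-0.48 to 0.0080) and -0.021 for the combination (-0.26 to 0.22).

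Pklr encodes the pyruvate kinase of liver and red cells, the last step of glycolysis. Its brighter probe read 7.13, 7.31 and 6.83 in controls and 6.29, 5.48 and 5.86 with T3. With XCT790 it read 6.58, 7.12 and 7.40, and with both 6.47, 5.65 and 6.27. The 6 arrays given T3 all lay below the 6 without it, with combination array 1 and XCT790 array 1 nearly level. T3 alone changed Pklr by -1.21 (SE 0.27, adjusted p = 0.00847, limma), a 2.32-fold fall. This call passed in all 12 other settings and with any single array left out. Among those settings the mean over probes also takes in a dimmer probe, described below. Without background correction the change was -0.71. For T3 added to XCT790 the change was -0.90 (adjusted p = 0.0400) and for the combination against controls -0.96 (adjusted p = 0.0266), and without background correction they were -0.55 and -0.58. The former call ended without XCT790 array 2 or 3 or combination array 2 or 3 (adjusted p = 0.0693 to 0.144), and the latter without control array 1 or 2 or combination array 2 (adjusted p = 0.0668 to 0.102). XCT790 alone gave -0.056 (95% interval -0.64 to 0.53).

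Red blood cells also express Pklr, and of 2 blood markers tested (3 listed) 1 fell with T3 alone, beside 8.91% of all genes. The markers' summed intensities were 14581 to 17370 in controls and 11863 to 30362 with T3. The part of blood in the Pklr values was not tested. A dimmer Pklr probe stood nearest inside the detection rule: it was detected on all 3 control and all 3 XCT790 arrays but on 1 T3 array and 1 combination array, so it passed through the groups where it was high. It read 6.21, 6.32 and 5.79 in controls and 5.47, 4.99 and 5.19 with T3, mostly not above background, and these values are a description that adds nothing to the test of the brighter probe. The remaining Pklr probe was detected on 1 array and the other named probes of Pcx and Pfkfb4 on 0, so these fell outside the rule.

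Pfkfb4 encodes a bifunctional kinase and phosphatase that sets the level of a fructose bisphosphate messenger, an activator of phosphofructokinase and an inhibitor of fructose bisphosphatase. It was the member that changed most. Control arrays read 5.64, 5.59 and 5.93, and T3 arrays 8.67, 9.67 and 9.78. XCT790 arrays read 5.92, 5.28 and 5.33, and combination arrays 9.80, 10.09 and 9.69. The groups with and without hormone were far apart, and T3 array 1 was the lowest of the arrays given hormone. Arrays without hormone lay near background, and over the 12 arrays the detection p reached 0.0459. The size of the fold changes therefore depends on the background correction. T3 alone raised Pfkfb4 by 3.65 (SE 0.27, adjusted p = 2.60e-06, limma), a 12.6-fold rise with a 95% interval of 8.42 to 18.8. T3 added to XCT790 raised it by 4.35 (SE 0.27, adjusted p = 8.76e-07), a 20.4-fold rise (13.7 to 30.5), and the combination was 4.14 above controls (adjusted p = 9.70e-07).

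The Pfkfb4 calls held in all 12 other settings and with each array left out, and without T3 array 1 the rise was 4.01. Without background correction the rises were 2.66, 3.20 and 3.11. The difference between the T3 responses was 0.70 (95% interval -0.12 to 1.52, adjusted p = 0.510), and XCT790 added to T3 gave 0.49 (-0.091 to 1.07). XCT790 alone gave -0.21 (-0.79 to 0.37).

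Gys2 encodes the liver glycogen synthase, which stores glucose as glycogen. Its brighter probe read 7.68, 7.52 and 7.32 in controls, 7.19, 7.26 and 7.00 with T3, 8.06, 7.81 and 7.81 with XCT790, and 7.25, 6.72 and 6.90 with both. The XCT790 arrays were the highest, the controls next, and the T3 and combination arrays overlapped below them. T3 added to XCT790 changed Gys2 by -0.94 (SE 0.15, adjusted p = 0.00124, limma), a 1.92-fold fall, in all 12 other settings and with each of the 6 arrays left out. The dimmer probe, at 7.74, 7.39 and 7.36 with XCT790 and 6.19, 6.32 and 6.45 with both, fell by 1.18 (adjusted p = 0.00241).

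Neither agent alone moved Gys2 past the threshold. On the brighter probe T3 alone gave -0.36 (SE 0.15, unadjusted p = 0.0322, adjusted p = 0.127, limma), with no overlap between the groups. XCT790 alone gave 0.39 there (SE 0.15, unadjusted p = 0.0213, adjusted p = 0.179), also without overlap. The dimmer probe read 7.61, 7.21 and 7.08 in controls and 6.54, 7.24 and 6.50 with T3, and both comparisons overlapped on it. Its changes were -0.54 with T3 alone (adjusted p = 0.106) and 0.20 with XCT790 alone (adjusted p = 0.710). On the brighter probe the combination fell by 0.55 against controls (adjusted p = 0.0223). That call ended without control array 1 or 2 or combination array 2 or 3 (adjusted p = 0.0616 to 0.0869). The difference between the T3 responses was -0.58 (95% interval -1.04 to -0.13, unadjusted p = 0.0158, adjusted p = 0.268). Over all 7 members the groups did not overlap for 5 with T3 alone, beside 34.8% of all genes, for 3 with XCT790 alone, beside 21.9%, and for 5 with T3 added to XCT790, beside 32.8%. They did not overlap for 5 with the combination, beside 35.5%, and for 0 with XCT790 added to T3, beside 19.3%.

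**Figure D2:**
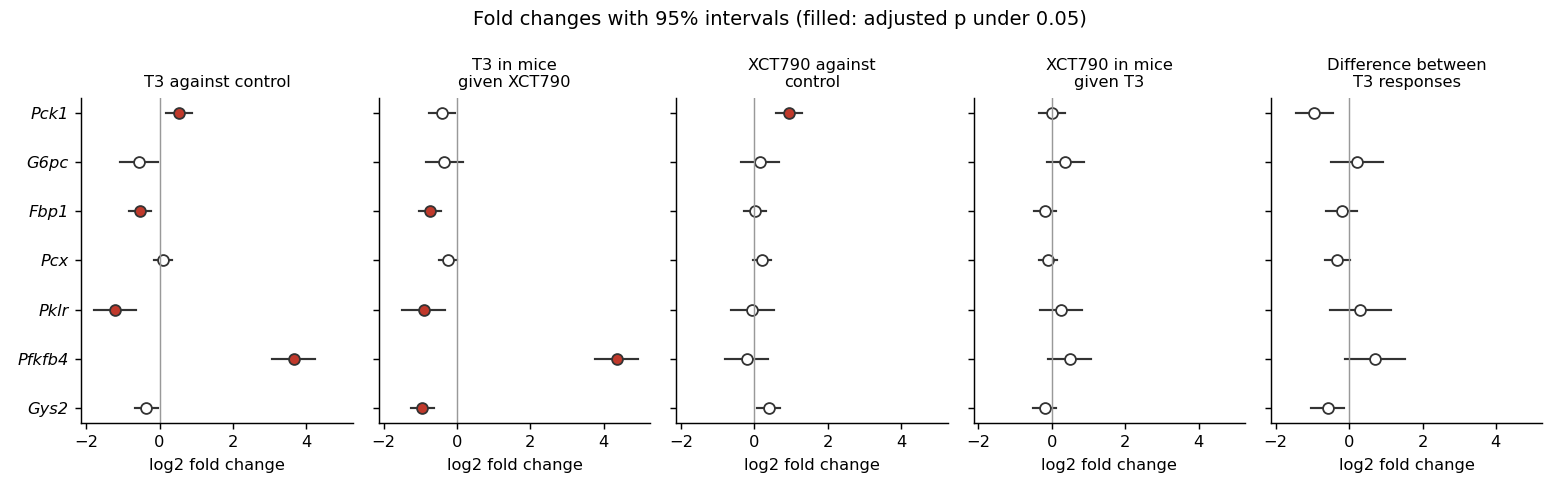
Log2 change of each of the 7 enzymes for T3 and XCT790, each alone and added to the other, and the difference between the T3 responses, with 95% intervals from the limma fit and filled points for adjusted p under 0.05. Pfkfb4 rises by 3.65 with T3 alone and by 4.35 with T3 added to XCT790, and Pck1 is the member called with XCT790 alone, at 0.95.

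**Figure D3:**
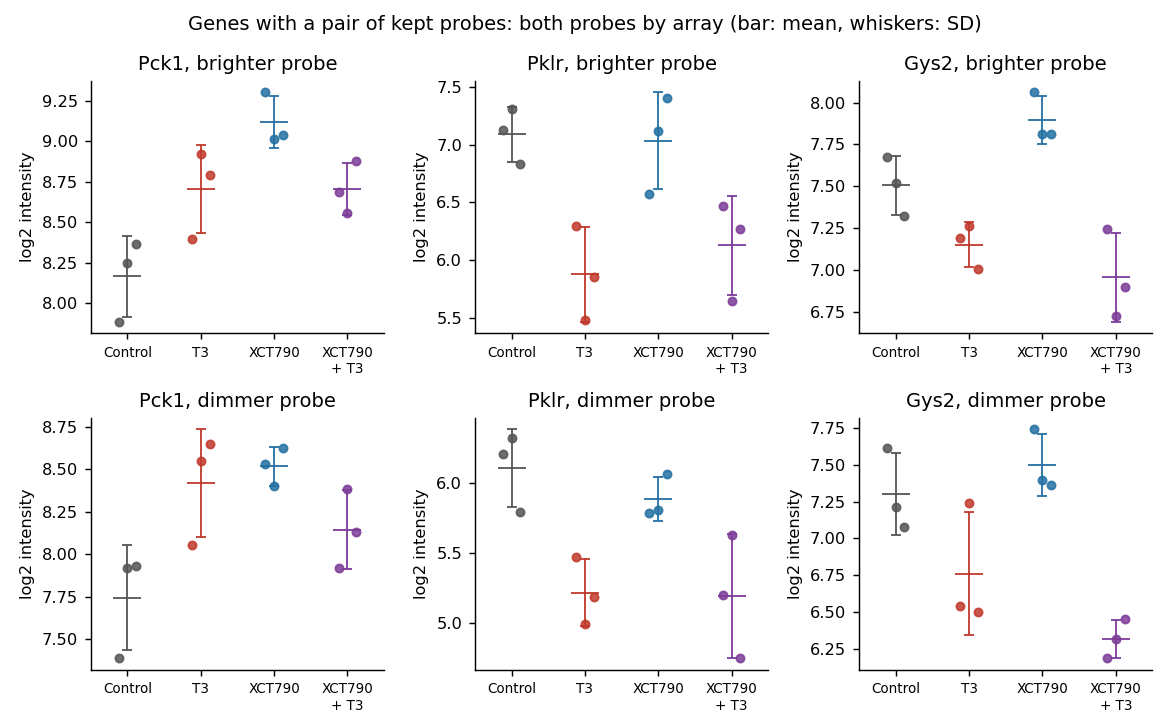
Log2 normalised intensity of the brighter and the dimmer kept probe of Pck1, Pklr and Gys2 on each of the 12 arrays, with bars at group means and whiskers of 1 SD. On the brighter Pklr probe the arrays given T3 lie below those without it, and for Pck1 the XCT790 arrays stand highest on the brighter probe and overlap the T3 arrays on the dimmer one.

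Within groups a few pairs of members varied together and most did not. After each array was set against its group mean, 6 of 21 pairs correlated above 0.6 in size over the 12 arrays and 13 below 0.35. Pck1 and Fbp1 stood at -0.819, Pklr and Pfkfb4 at -0.805, Fbp1 and Pfkfb4 at -0.747 and Pck1 and G6pc at 0.645, while Fbp1 and Gys2 stood at -0.0036 and G6pc and Pklr at -0.02. T3 array 1, the array with the lowest Pfkfb4 of those given hormone, had the lowest Pck1 and the highest Fbp1 and Pklr of the T3 group. Points share their array's RNA and scaling, and the values are a description. Over the 12 arrays as a whole, the genes of most similar pattern were Rnase2a (r = 0.993) and Slc22a7 (0.992) for Pfkfb4, Rassf3 (0.976) and Gsta1 (0.964) for Fbp1, and Il17rb (0.945) and Echdc3 (0.934) for Pklr. They were Gde1 (0.951) and Zfp318 (0.942) for Pck1, Acsm3 (0.938) and Cyp2j9 (0.934) for Gys2, Isoc2a (0.871) and Rnf141 (0.866) for G6pc, and Ids (0.909) and Nfia (0.836) for Pcx.

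Other genes of the same pathways were read from 5 lists, also chosen with earlier results of these data known, so their shares are a description too. Their median changes with T3 alone were 0.35 for glucose transport and output, 0.13 for glycolysis and 0.20 for pyruvate handling. Those for glycogen and regulators were -0.081 and 0.14, beside -0.0074 over all genes. For the combination against controls these lists had, in that order, 2, 3, 4, 1 and 6 genes higher and 1, 0, 1, 3 and 5 lower. They held 8, 14, 14, 15 and 29 genes tested, and the shares called were 37.5%, 21.4%, 35.7%, 26.7% and 37.9%. Of all genes 18.7% were called there, 8.97% higher and 9.77% lower. Of 8 tested genes of glucose transport, phosphorylation and output (13 listed), 2 rose and 1 fell with T3 alone, and 3 rose and 1 fell with T3 added to XCT790. These are 37.5% and 50% of the list, beside 16.1% and 15.2% of all genes. Gpd2, the mitochondrial glycerol phosphate dehydrogenase that feeds glycerol carbon toward glucose, rose by 1.26 and 1.36, from 9.61, 9.67 and 9.91 on control arrays to 10.99, 11.07 and 10.91 on T3 arrays. Slc2a2, the main glucose transporter of hepatocytes, fell by 0.76 with T3 alone (adjusted p = 0.00499), from 11.14, 11.35 and 11.04 to 10.65, 10.24 and 10.36. The widely expressed transporter Slc2a1 rose by 0.56 (adjusted p = 0.00224), a call that ended under scaling to the median of all probes (adjusted p = 0.0738). Hk3 was called only for T3 added to XCT790 among the comparisons made (1.04, or 0.56 without background correction, adjusted p = 0.0156). That call ended without XCT790 array 2 (adjusted p = 0.0663) or combination array 3 (0.0615). Short of the threshold, Hk3 also rose by 0.72 with T3 alone (adjusted p = 0.0711, limma) and by 0.74 for the combination (adjusted p = 0.0577). The difference between its T3 responses was 0.31 (adjusted p = 0.802).

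Of 14 glycolytic enzyme genes tested (22 listed), 1 rose and 2 fell with T3 alone, 2 rose and 1 fell with T3 added to XCT790, and 3 rose for the combination. Each is 21.4% of the list, near the 16.1%, 15.2% and 18.7% of all genes called. With T3 alone Tkfc, which enters fructose carbon into glycolysis, fell by 0.49, Aldoc fell by 0.79 and Gapdh rose by 0.30, with adjusted p of 0.0339, 0.0350 and 0.0479 by limma. Each of those 3 calls ended without control array 1 or control array 2, among other single arrays (adjusted p = 0.0502 to 0.142), and under scaling to the median of all probes (adjusted p = 0.087, 0.0887 and 0.545). Pkm, the pyruvate kinase of most tissues other than liver, rose by 0.67 for the combination (adjusted p = 0.0127), a call that ended under scaling to the median of all probes (adjusted p = 0.223). Pgk1 rose by 0.50 for T3 added to XCT790 (adjusted p = 0.0391) and Khk by 0.50 for the combination (adjusted p = 0.0247). The Pgk1 call ended without XCT790 array 1 or 2 or combination array 1 or 2 (adjusted p = 0.105 to 0.145), and that of Khk without control array 3 or combination array 1 or 2 (0.0806 to 0.0902). Scaling to the median of all probes gave 0.26 for Pgk1 (adjusted p = 0.478) and 0.24 for Khk (adjusted p = 0.40), and median scaling of kept probes also ended the Pgk1 call (adjusted p = 0.0603).

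Pyruvate handling had 4 genes higher and 1 lower with T3 alone of 14 tested (21 listed), 2 higher with XCT790 alone, and 3 higher and 1 lower with T3 added to XCT790. The shares were 35.7%, 14.3% and 28.6% of the list, beside 16.1%, 4.44% and 15.2% of all genes. Me1, the cytosolic malic enzyme, rose by 1.60 (adjusted p = 0.000135) and 1.45, and Pdp2, a phosphatase that activates pyruvate dehydrogenase, by 1.16 (adjusted p = 3.15e-05) and 0.97. On single arrays Me1 read 8.52, 8.46 and 8.58 in controls and 10.33, 10.18 and 9.87 with T3. XCT790 alone raised Gpt2, an alanine aminotransferase of mitochondria, by 0.69 (adjusted p = 0.00211), and its cytosolic counterpart Gpt by 0.45 (adjusted p = 0.0409). The Gpt call ended with any single array left out (adjusted p = 0.0614 to 0.127) and under scaling to the median of all probes (0.376). With T3 alone Gpt2 rose by 0.40 and Pdhb by 0.50, and the Pdhb call ended without control array 1 or 3 or T3 array 1 or 2 (adjusted p = 0.0554 to 0.0657), that of Gpt2 without T3 array 3 (0.0501). Scaling to the median of all probes also ended both (adjusted p = 0.246 for Pdhb and 0.27 for Gpt2), and median scaling of kept probes ended that of Gpt2 (0.0571).

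Among 15 tested genes of glycogen metabolism (22 listed), 1 rose and 3 fell with T3 alone, 1 rose with XCT790 alone, and 0 rose and 4 fell with T3 added to XCT790. As shares of the list these were 26.7%, 6.67% and 26.7%, beside 16.1%, 4.44% and 15.2% of all genes, so that with XCT790 alone was near the background. Ugp2, which makes the UDP-glucose that Gys2 uses, fell by 0.92 with T3 alone (adjusted p = 0.00128), Stbd1, a glycogen-binding protein, by 0.98 (adjusted p = 0.00141), and Pgm1, a phosphoglucomutase gene, by 0.44 (adjusted p = 0.0157). The Pgm1 call ended without T3 array 3 (adjusted p = 0.0503) and under scaling to the median of all probes (0.0524). Ppp1r3b, a subunit that brings protein phosphatase to glycogen in liver, rose by 1.46 with T3, by 1.72 with XCT790 and by 1.43 with both (adjusted p = 0.00172, 0.00289 and 0.00177). Its control arrays read 8.81, 8.99 and 10.08, and every array of the treated groups read between 10.66 and 11.06. The T3 response of Ppp1r3b with XCT790 differed by -1.75 from that without (adjusted p = 0.0538). Ppp1r3g, another such subunit, was detected on all 3 XCT790 arrays and on 2 of 3 combination arrays, and fell by 1.57 with T3 added to XCT790 (adjusted p = 0.0147), or by 0.78 as the mean over its probes. This was a call that ended without XCT790 array 1 or 2 or combination array 2 (adjusted p = 0.058 to 0.0623).

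Of 29 regulators tested (37 listed), 7 rose and 5 fell with T3 alone, 4 rose with XCT790 alone, and 3 rose and 2 fell with T3 added to XCT790. The shares of the list were 41.4%, 13.8% and 17.2% against 16.1%, 4.44% and 15.2% over all genes, the last of them near the background. Cebpb, a factor active at Pck1 and other gluconeogenic genes, read 11.22, 11.52 and 11.40 in controls, 13.11, 13.37 and 13.32 with T3, 12.54, 12.32 and 12.32 with XCT790, and 12.96, 13.12 and 13.19 with both. The groups without hormone did not overlap those with it, and Cebpb rose by 1.89 with T3 (adjusted p = 8.85e-07), by 1.01 with XCT790 (adjusted p = 0.000874) and by 0.70 with T3 added to XCT790 (adjusted p = 0.00199). The last of these calls ended under scaling to the median of all probes (0.46, adjusted p = 0.0861). Foxo1, a forkhead factor that insulin keeps out of the nucleus, rose by 1.40 with T3 and by 1.04 with XCT790 (adjusted p = 0.000260 and 0.00689). Its arrays read 7.58, 7.45 and 7.95 in controls, 8.83, 9.35 and 9.02 with T3, 8.88, 8.76 and 8.47 with XCT790, and 8.78, 9.10 and 9.24 with both. The interaction for Foxo1 was -1.07 (adjusted p = 0.0980). Srebf1, a factor of insulin-driven lipid and glucose use, fell by 1.70 with T3 (adjusted p = 5.70e-06) and by 1.72 with T3 added to XCT790. Mlxipl, the carbohydrate response factor that acts on Pklr, rose by 0.50 with T3 alone and by 0.78 with T3 added to XCT790 (adjusted p = 0.00732 and 0.000457), the comparisons in which Pklr fell. The latter Mlxipl call ended under scaling to the median of all probes (adjusted p = 0.0523). The former was not checked under the other settings or with arrays left out.

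The targeted receptor's own gene, Esrra, rose by 0.57 with XCT790 (adjusted p = 0.0148) and by 0.58 with T3 (adjusted p = 0.00442). Leaving out control array 2, control array 3, XCT790 array 1 or XCT790 array 2 ended the call with XCT790, at adjusted p of 0.0538 to 0.0618, as did scaling to the median of all probes (0.115). The Esrra call with T3 was not checked in these ways. Its relative Esrrg rose by 1.72 with T3 (adjusted p = 0.000252), from 5.01, 5.19 and 5.20 on control arrays, near the detection limit, to 6.81, 7.25 and 6.51, and its rise was 0.90 without background correction. Txnip rose by 0.80 with XCT790 (adjusted p = 0.0454), and that call ended without any 1 of the control arrays or XCT790 arrays 1 and 2 (adjusted p = 0.0605 to 0.157), and under scaling to the median of all probes (0.0512). XCT790 added to T3 gave 0 calls by limma in all 5 lists, beside 0.0923% of all genes called. At an unadjusted p under 0.05 by limma the lists had 1, 5, 3, 1 and 2 genes in the order given here. The share of all genes at that threshold was not counted.

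**Figure D4:**
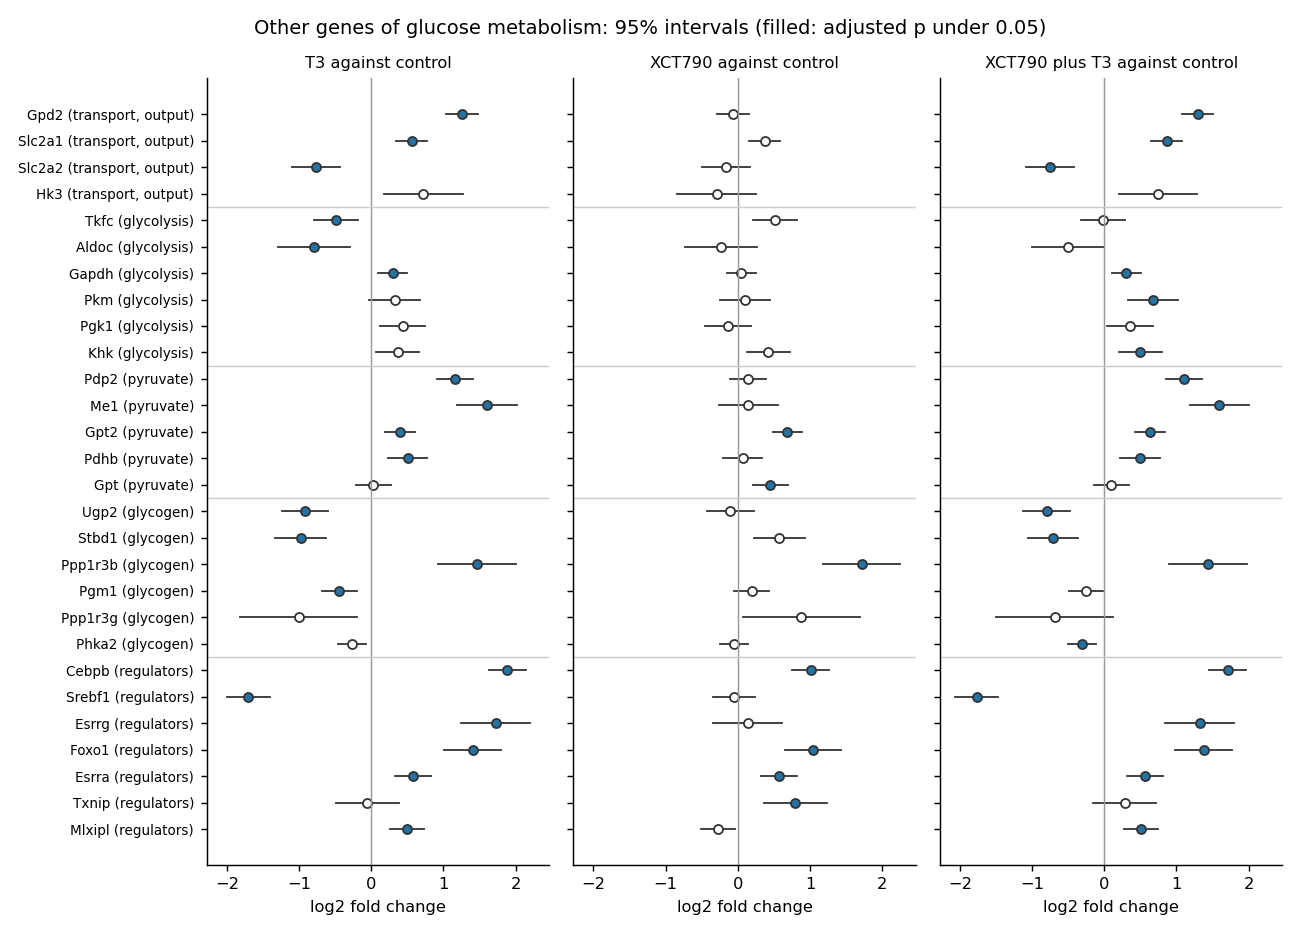
Log2 change of named genes of the 5 pathway lists against untreated controls, with T3, XCT790 or both, as points with 95% intervals and filled points for adjusted p under 0.05 in the limma fit over 9747 genes. Ppp1r3b and Foxo1 rise with each agent alone, by 1.46 and 1.40 with T3 and by 1.72 and 1.04 with XCT790, and Gpd2, Me1 and Srebf1 are called with T3 alone and with both agents.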

How the data were processed

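Liver RNA of 12 samples was hybridised to Illumina bead arrays. The authors deposited a non-normalized table with an intensity and a detection p-value per probe and array, per the file headers. They also deposited a processed matrix of linear intensity, with a median of 84.5 on every array; every value lay within 0.01 of the quantile normalised intensity of that table, and log2 was taken of it as an alternative. Partek 6.6 is named in the submitters' processing notes. Probe symbols came from the platform annotation: 34885 probes had 1 symbol, 18 several and 10378 none.

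Intensities were background corrected from the detection p-values (nec, offset 16), quantile normalised and put on the log2 scale in limma 3.58.1 (R 4.3.3). Probes with detection p under 0.05 on at least 3 arrays were kept (17218 of 45281), and the probe of highest mean stood for each gene. All 12 arrays entered 1 limma fit with 4 groups and no covariate, tests were two-sided, and p-values were adjusted over 9747 genes. The fit was tested on simulated data. The number of arrays limits the precision. Kept probes of a gene were also tested separately.

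The members, lists, named-gene rule and promoter motifs were chosen with earlier results of these data known. All members were named; from each list up to 4 called genes per comparison with the lowest p were eligible to be named, beside 2 genes of most similar pattern per member, and Thrsp and Dio1. Alternatives changed the background correction, scaling, filter, probe choice, arrays in the fit, array weights, replicate block and single arrays. Listed genes without a kept named probe were not analysed here.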

Additional observations from a re-analysis of the deposited data

Results flagged for a closer look

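Cebpb was singled out because its response to T3 differed between mice with and without XCT790 in a test of the difference itself: -1.19 on the log2 scale (SE 0.17, 95% interval -1.55 to -0.82, adjusted p = 0.0121, limma). T3 raised it by 1.89 without XCT790 and by 0.70 with it, in 3 of 3 arrays each time. The former is against controls with no stated injection, so XCT790 and injection cannot be told apart in this difference. XCT790 alone raised Cebpb by 1.01 from the control level, and XCT790 added to T3 gave -0.18 (adjusted p = 0.575). The interaction passed the threshold in all 11 other settings run and with each of the 12 arrays left out, from -1.34 to -1.11 with adjusted p up to 0.0452.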

How the results depend on the processing

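Pfkfb4 with T3, Pklr with T3 alone, Pck1 with XCT790, and Fbp1 and Gys2 with T3 added to XCT790 passed under all 12 other settings and with each single array left out. For Pklr the mean over probes among these settings takes in its dimmer probe, which was mostly not above background with T3. Calls with T3 alone numbered 1574 and became 942 (389 higher, 553 lower) under scaling to the median of all probes, and 1137 to 1357 with an array left out. With XCT790 alone 433 became 235 under that scaling and 250 with only the groups compared in the fit (188 to 399 with an array left out, 188 without XCT790 array 1 and 217 without control array 2). T3 added to XCT790 gave 1481 calls (977 to 1253 with an array left out, 977 without XCT790 array 2) and 1254 under that scaling, and the combination gave 1826 (1243 to 1511) and 2377. For XCT790 added to T3, 9 calls (7 higher, 2 lower) became 17 (8 and 9) without background correction and in the deposited matrix, 14 (8 and 6) with offset 50, 4 (4 and 0) under median scaling of kept probes, 18 (3 and 15) under that of all probes, 1 with only the groups compared and 3 with the replicate block (1 to 6 with an array left out). The interaction's 45 calls (18 higher, 27 lower) became 143 (75 and 68), 126 (62 and 64) and 141 (73 and 68) without background correction, with offset 50 and in the deposited matrix, 27 with no filter, 91 with a stricter filter, 25 (13 and 12) with the replicate block, 80 with array weights, and 17 to 99 with an array left out, 99 being without T3 array 1. Under scaling of all probes it was 43 (8 and 35). Uncalled values near 0 turned sign: for XCT790 alone G6pc (-0.11 to 0.30 with an array left out), Fbp1 to -0.053 under scaling of all probes, -0.030 with array weights and -0.056 to 0.11 with an array left out, and Pklr (-0.24 to 0.17 with an array left out); for XCT790 added to T3 Pck1 to -0.27 under scaling of all probes, -0.14 as the mean of its probes, -0.018 with array weights and -0.15 to 0.11 with an array left out; and Pcx for the combination (-0.097 to 0.081 with an array left out). The cause was not tested. No pairing by replicate number was seen in correlations of arrays set against their group means. There 18 same-number pairs correlated at -0.131 to 0.131 and 36 other pairs at -0.185 to 0.229. Of 12 arrays, 4 correlated best with their own number. With 3 arrays a group this cannot show that the samples were unpaired. The replicate block gave 1529, 351, 1391 and 1709 calls for T3, XCT790, T3 added to XCT790 and the combination, and with it the adjusted p was 0.0521 for Pck1 with T3 and 0.0581 for Pklr with T3 added to XCT790. A slide block was not run, since the headers used here give no slides. Signal near background limits the dimmer Pklr probe, Pfkfb4 without hormone, Esrrg and Ppp1r3g.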
